A study of Homo sapiens with 9 samples.

Results

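S100 proteins are small calcium sensors of vertebrate cells that carry EF-hand motifs, mostly pair up as dimers and change shape on binding calcium so that they can grip a partner protein. Inside cells they bind annexins, myosin and other cytoskeletal proteins, and some are secreted and bind cell surface receptors. Several are abundant in mesenchymal and migrating cells, and S100a4 is widely used as a marker of metastatic carcinoma and of fibroblasts. The 8 genes described here are S100a4, S100a6, S100a10, S100a11, S100a13, S100a1, S100a16 and S100a3, which were picked by symbol from the 17369 genes of the expression table. All 8 had a value, and all 8 passed the filter on low values (at least 1 FPKM in at least 3 tumors) that 10263 genes passed. The choice used measured values, since S100a4 was known to be the most abundant transcript of 1 original tumor. Its difference from the original tumors is therefore given as a description without a test.

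RNA was sequenced from whole orthotopic tumors of TBP3743, a murine anaplastic thyroid cancer (ATC) line whose source mice carried mutant Braf and lacked Trp53 in the thyroid, so that all groups share both lesions. Original cells in B6129SF1 hybrid mice formed the original/B6129SF1 group, adapted cells in B6129SF1 mice the adapted/B6129SF1 group, and adapted cells in C57BL/6 mice the adapted/C57BL/6 group, with 3 tumors each. Adapted cells had been recovered from tumors grown under the skin of C57BL/6 mice over 3 rounds, each of which was continued from the largest tumors, so they are a selected population. All hosts were females aged 6 weeks at injection, 100000 cells were injected into the left thyroid lobe, and tumors were taken after 14 days. The unit is FPKM, fragments per kilobase of transcript scaled to library size, which is a level per length. Comparing genes by FPKM rests on transcript lengths from an annotation that is not given in the sources used here.

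Because the RNA came from whole tumors, S100 transcripts of tumor cells, host fibroblasts and leukocytes are measured together, and fewer cells of a type cannot be told apart from less RNA per cell. Of 8 epithelial marker genes, the keratin genes Krt8 and Krt18 were high, at 152.9 to 614.6 and 110.2 to 389.7 FPKM, while Epcam, Cdh1, Krt19, Krt7, Cldn4 and Cldn7 were at 4.48 FPKM or less in every tumor. The sum of the epithelial markers was 577.5 to 970.1 FPKM in the original/B6129SF1 group, 265.4 to 548.2 in the adapted/B6129SF1 group and 371.2 to 424.7 in the adapted/C57BL/6 group. Krt8 was lower in both adapted groups, by log2 fold changes of -1.32 and -1.12 (limma adjusted p = 0.0189 and 0.0346). It alone of the 6 epithelial genes tested had an adjusted p under 0.05 by limma in each comparison. The shares of all genes tested were 8.28% and 6.75%. The median log2 fold change of the 6 was -0.39 and -0.07, and in the adapted/C57BL/6 group 3 of the 6 were above 0. Both Krt8 calls were lost without original/B6129SF1 replicate 1 or 3, and that of the adapted/C57BL/6 group also without any 1 of its own tumors. Of 9 other settings of scaling, filter, pseudocount, samples and model, 3 lost the call of the adapted/B6129SF1 group. For the adapted/C57BL/6 group, 4 of the 9 lost it. The limma adjusted p of the lost calls reached 0.116. The thyroid transcription factor gene Nkx2-1 was at 23.5 to 44.5 FPKM. The thyroid genes Foxe1, Tshr, Slc5a5 and Duox2 were under 1 FPKM in every tumor. Summed macrophage and monocyte markers (11 of 12 in the table) were 2203 to 2778 FPKM in the original/B6129SF1 group, 2816 to 4194 in the adapted/B6129SF1 group and 1819 to 3439 in the adapted/C57BL/6 group. Summed fibroblast markers (10 of 10) were 1004 to 1268, 1116 to 1891 and 1239 to 1457 FPKM in those groups. Summed T cell markers (9 of 10) were 4.94 to 7.93, 9.18 to 36.4 and 24.2 to 36.0 FPKM. The part of other cells in the S100 levels was not tested. Skeletal muscle markers summed to 36419 FPKM in adapted/B6129SF1 replicate 3 and 5986 in adapted/C57BL/6 replicate 1, against 730.9 or less in the other tumors.

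The 8 transcripts differed widely in level. S100a4 was the most abundant in 9 of 9 tumors, with a mean of 5843 FPKM over all tumors, 2.81 times that of S100a6. It ranked between 1 and 5 among all genes of a tumor. S100a6 (2078 FPKM), S100a11 (1528 FPKM) and S100a10 (1339 FPKM) followed, and S100a6 was above S100a11 in all 9 tumors. S100a11 was above S100a10 in 6 of 9, so these neighbours were not separated. At a much lower level came S100a13 (128.1 FPKM) and S100a1 (120.8 FPKM), whose order changed between tumors as well (5 of 9), and below them S100a16 (55.5 FPKM) in all 9. S100a3 was at the edge of detection with 1.21 FPKM. Together the 8 transcripts took 1.89% to 3.40% of all FPKM in a tumor.

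**Figure D1:**
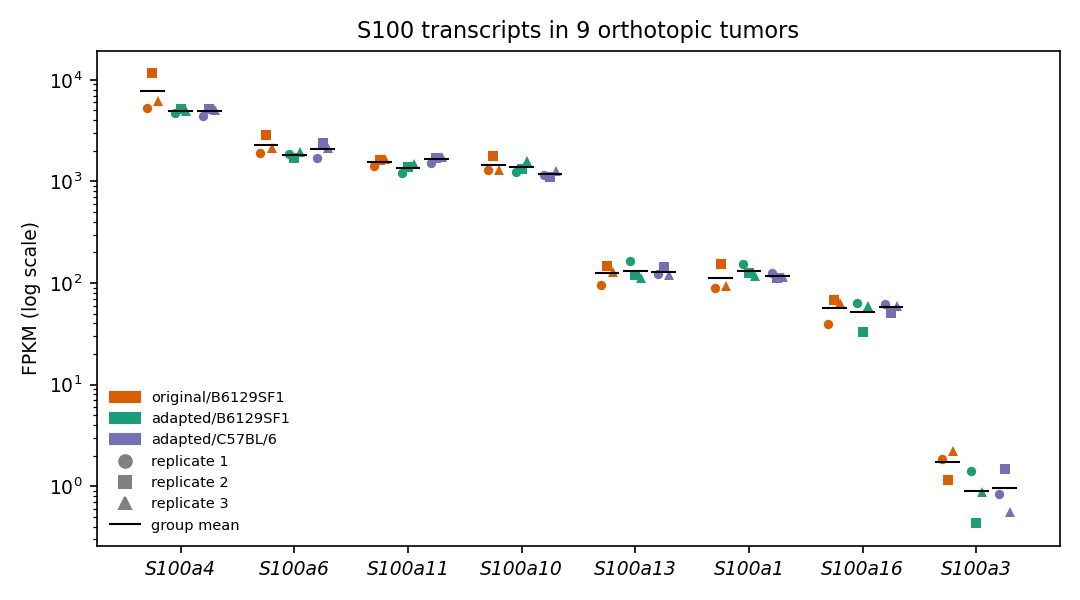
FPKM on a log axis of the 8 S100 transcripts in the 9 tumors, with color for the group, symbol for the replicate number and a bar for the mean of the 3 tumors. The order from S100a4 (4391 to 11608 FPKM) to S100a3 (0.433 to 2.24 FPKM) spans the picture, while the groups of each gene lie close together.

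S100a4, also called metastasin, binds nonmuscle myosin and is tied to cell motility. It was 5300.1, 11608 and 6181 FPKM in original/B6129SF1 replicates 1 to 3, 4748, 5215 and 4897 FPKM in the adapted/B6129SF1 tumors, and 4391, 5153 and 5094 FPKM in the adapted/C57BL/6 tumors. The 6 adapted tumors lay in a narrow band, with an SD of 310.3 around 4917 FPKM, and all 3 original tumors were above it. The margin was small, since the lowest original tumor was 1.02 times the highest adapted tumor. Among all genes tested, 29.6% did not overlap between the adapted/B6129SF1 and original/B6129SF1 groups. For the adapted/C57BL/6 group this share was 32.8%, so such a separation was common. Original/B6129SF1 replicate 2 stood far above the rest, and there S100a4 was the first of all genes, ahead of the elongation factor gene Eef1a1 (8182 FPKM). The mean of the original/B6129SF1 group was 7696 ± 3416 FPKM (SD, n = 3), which was 1.55 times that of the adapted/B6129SF1 group and 1.58 times that of the adapted/C57BL/6 group. With replicate 2 set aside, these ratios were 1.16 and 1.18. On the log2(FPKM + 1) scale, on which all differences below are given, S100a4 differed by -0.55 and -0.57 from the original/B6129SF1 group, and by -0.21 and -0.23 without replicate 2. As a share of all FPKM, S100a4 took 2.16% in that tumor and 0.906% to 1.30% in the other 8.

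The same original tumor was also the highest of all 9 for S100a6, S100a10 and S100a16, and the second highest for S100a1 and S100a13. Its level over the mean of the other 2 original tumors was 2.02 for S100a4, 1.68 for S100a1, 1.44 for S100a6, 1.36 for S100a10, 1.32 for S100a13 and 1.32 for S100a16, but 1.04 for S100a11 and 0.567 for S100a3. The S100a4 level of this tumor was part of the choice of the genes, so its ratio is a description. The median of this ratio was 0.983 over all genes tested. Some other abundant transcripts, chosen after their values were seen, were high in this tumor too. The median ratio of 70 cytosolic ribosomal protein genes was 1.37, that of the metallothionein gene Mt2 was 1.91, and that of Anxa1 was 1.79. The sum of all FPKM, 536661 here against 469491 and 473741 in the other original tumors, moved the same way. The part of these shifts in the S100 values was not tested.

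**Figure D2:**
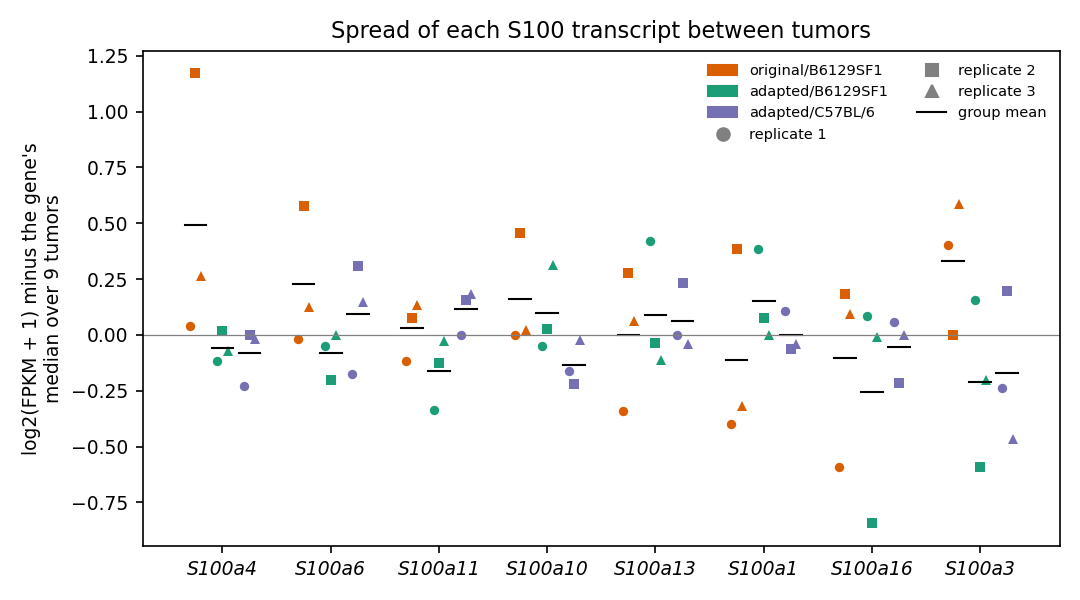
For each S100 transcript, log2(FPKM + 1) of each tumor minus the median of that gene over the 9 tumors, with color for the group, symbol for the replicate number and a bar for the group mean. Original/B6129SF1 replicate 2 is the highest point for S100a4, S100a6, S100a10 and S100a16, and adapted/B6129SF1 replicate 2 the lowest for S100a6, S100a16 and S100a3.

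Between groups, the question was whether the S100 repertoire shifted with adaptation of the cells or with the host. It was tested with limma across all 10263 genes in one model of the 9 tumors, with Benjamini-Hochberg adjustment, and log2 fold changes are given with their standard error (SE). In the adapted/B6129SF1 group against the original/B6129SF1 group, 0 of the 7 transcripts tested passed an adjusted p under 0.05, where 8.28% of all genes did. In the adapted/C57BL/6 group 0 of 7 passed, where 6.75% of all genes did. The comparisons share the original/B6129SF1 tumors. Between the adapted/C57BL/6 and adapted/B6129SF1 groups 0 of 8 passed, against 0.0292% of all genes. At an unadjusted p under 0.05 the count was also 0 in each comparison. The median log2 fold change of the 7 transcripts was -0.15 in the adapted/B6129SF1 group and 0.05 in the adapted/C57BL/6 group, beside -0.03 and -0.03 for all genes tested.

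For 6 of the 7 transcripts tested against the original/B6129SF1 group, every 95% interval lay within 0.585-fold to 1.65-fold in both adapted groups. The interval of S100a3 was wider and reached down to 0.456-fold and 0.47-fold. Between the adapted groups, all 8 intervals lay within 0.635-fold to 1.77-fold. These intervals are not adjusted for the number of genes. A median gene of those tested had a coefficient of variation of 16.6% over the 9 tumors, and that of the 8 transcripts ranged from 11.3% for S100a11 to 37.9% for S100a4 and 49.6% for S100a3.

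**Figure D3:**
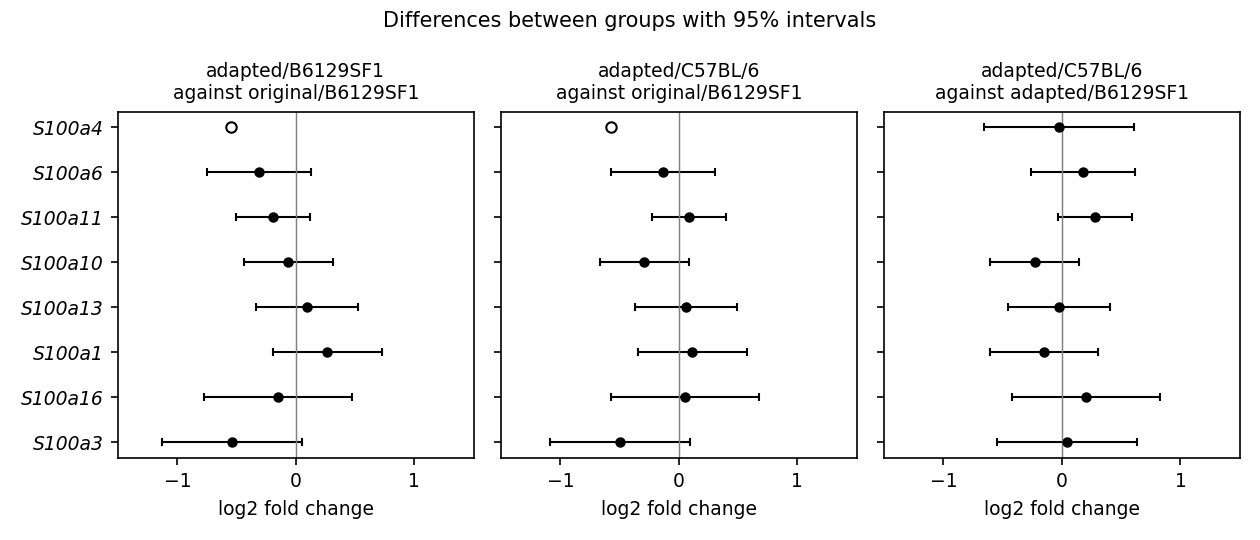
Log2 fold changes of log2(FPKM + 1) for the 8 S100 transcripts in the 3 comparisons, from limma, with 95% intervals as bars. All intervals drawn include 0. Open circles mark S100a4 against the original/B6129SF1 group (-0.55 and -0.57), which was described and not tested.

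Of the annexin-binding members, S100a10 differs from its relatives in that it stays in the binding shape without calcium. It pairs with Anxa2 on the inner face of the plasma membrane, and the complex binds plasminogen at the cell surface. S100a10 was 1289, 1767 and 1308 FPKM in the original/B6129SF1 tumors, 1244, 1313 and 1601 FPKM in the adapted/B6129SF1 tumors, and 1153, 1105 and 1267 FPKM in the adapted/C57BL/6 tumors. The adapted/C57BL/6 tumors were the 3 lowest but for adapted/B6129SF1 replicate 1, and none of them overlapped the original/B6129SF1 group. The gap was narrow, with the lowest original tumor 1.02 times the highest adapted/C57BL/6 tumor. The log2 fold change of the adapted/C57BL/6 group was -0.29 (SE 0.17, limma adjusted p = 0.317), and the exact two-sided permutation test gave p = 0.1, the smallest that 3 tumors against 3 allow. S100a10 was the only one of the 7 transcripts tested whose groups did not overlap in this comparison, whereas 32.8% of all genes did not overlap. In the adapted/B6129SF1 group against the original/B6129SF1 group 0 of the 7 did not overlap, where 29.6% of all genes did not.

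S100a11, which binds Anxa1 and takes part in growth control and membrane repair, was the steadiest member. It was 1405, 1609 and 1676 FPKM in the original/B6129SF1 tumors, 1208, 1399 and 1496 FPKM in the adapted/B6129SF1 tumors, and 1526, 1702 and 1735 FPKM in the adapted/C57BL/6 tumors. Every adapted/C57BL/6 tumor was above every adapted/B6129SF1 tumor, by a factor of at least 1.02, while the original/B6129SF1 tumors overlapped both groups. The log2 fold change between the adapted groups was 0.28 (SE 0.14, limma adjusted p = 0.815), with p = 0.1 in the exact permutation test. It was the only one of 8 members whose adapted groups did not overlap, where 11.7% of all genes did not.

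S100a6, or calcyclin, is induced in proliferating cells and binds Cacybp as well as annexins. It was 1916, 2894 and 2116 FPKM in the original/B6129SF1 tumors, 1877, 1688 and 1939.9 FPKM in the adapted/B6129SF1 tumors, and 1719.8, 2401 and 2148 FPKM in the adapted/C57BL/6 tumors. The adapted/B6129SF1 tumors lay low and close together, but original/B6129SF1 replicate 1 lay among them. The log2 fold change of the adapted/B6129SF1 group was -0.31 (SE 0.19, limma adjusted p = 0.34), and that of the adapted/C57BL/6 group was -0.13 (adjusted p = 0.718). Without original/B6129SF1 replicate 2 the adapted/C57BL/6 value was 0.04.

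S100a1 is best known from heart and skeletal muscle, where it acts on the calcium pump and the ryanodine receptor. It was 89.0, 153.8 and 94.1 FPKM in the original/B6129SF1 tumors, 153.9, 124.3 and 117.8 FPKM in the adapted/B6129SF1 tumors, and 126.8, 112.9 and 114.5 FPKM in the adapted/C57BL/6 tumors. The original/B6129SF1 group held both the lowest tumor and the second highest one, so the groups overlapped in every comparison. Adapted/B6129SF1 replicate 3, with the most skeletal muscle RNA, had the lowest S100a1 of its group. In adapted/C57BL/6 replicate 1, which held the next most muscle RNA, S100a1 was the highest of its group. The largest S100a1 difference was 0.27 in the adapted/B6129SF1 group against the original/B6129SF1 group (SE 0.20, limma adjusted p = 0.431). It was 0.34 with both of these tumors left out, and 0.51 (adjusted p = 0.0612) without original/B6129SF1 replicate 2.

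S100a13 takes part in the release of Fgf1 and Il1a from cells without a secretory signal. It was 96.4, 148.3 and 127.7 FPKM in the original/B6129SF1 tumors, 163.9, 119.2 and 113.0 FPKM in the adapted/B6129SF1 tumors, and 122.2, 143.5 and 118.8 FPKM in the adapted/C57BL/6 tumors. All groups overlapped, and no difference was larger than 0.09 on the log2 scale (adjusted p of 0.792 or more in each comparison, limma). Of its cargo, Il1a was under 1 FPKM in every tumor and Fgf1 did not pass the test in any comparison.

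S100a16 was 39.2, 67.9 and 63.8 FPKM in the original/B6129SF1 tumors, 63.3, 32.8 and 59.3 FPKM in the adapted/B6129SF1 tumors, and 62.2, 51.2 and 59.7 FPKM in the adapted/C57BL/6 tumors. A single low tumor in each group of B6129SF1 hosts set the spread, and the adapted/C57BL/6 tumors lay inside both ranges. Its log2 fold changes were -0.15 in the adapted/B6129SF1 group and 0.05 in the adapted/C57BL/6 group (adjusted p = 0.758 and 0.932, limma).

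S100a3, known from the hair cuticle, was 1.86, 1.16 and 2.24 FPKM in the original/B6129SF1 tumors, 1.41, 0.433 and 0.879 FPKM in the adapted/B6129SF1 tumors, and 0.834, 1.47 and 0.564 FPKM in the adapted/C57BL/6 tumors. It reached 1 FPKM in 5 tumors, among them all 3 original ones, so it passed the filter largely through the group where it was high. Its log2 fold changes of -0.54 and -0.50 against the original/B6129SF1 group (SE 0.26 each) had adjusted p-values of 0.225 and 0.28 from limma. With a pseudocount of 0.1 they were -0.96 and -0.85 (adjusted p = 0.241 and 0.314). At 2.24 FPKM or less, the depth is thin for this gene.

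The members were next compared with each other. Over the 28 pairs of members the median Pearson correlation of log2(FPKM + 1) across the 9 tumors was 0.29, and 0.06 without original/B6129SF1 replicate 2. The highest was that of S100a4 with S100a6, at 0.81 (Spearman 0.48), which was 0.44 without that tumor. S100a4 and S100a10 had 0.72 and 0.16. S100a1 and S100a13 had 0.74 (Spearman 0.58) and 0.68, which fell to 0.34 without original/B6129SF1 replicate 1 and adapted/B6129SF1 replicate 1, the tumors farthest from the median of S100a1. These are descriptions over 9 tumors that share 3 groups and 1 normalization.

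Among the other genes tested, those most like S100a4 over the 9 tumors were Omd, which encodes a small leucine-rich matrix protein, Vps41 and Dctn6, with Pearson correlations of 0.97 each. Omd was 52.0 FPKM in original/B6129SF1 replicate 2 and 3.97 to 7.18 FPKM in the other 8. Without that tumor the correlations with S100a4 were 0.70, 0.80 and 0.62. The gene most like S100a6 was Lgals3, which encodes the lectin galectin-3 (0.95, and 0.88 without that tumor). For S100a10 it was 0610009B22Rik (0.96), for S100a11 Eif4ebp1 (0.89), for S100a1 Shf (0.97), for S100a13 Mylip (0.96), for S100a3 Insr (0.95) and for S100a16 the folate receptor gene Folr2 (0.95). With 10255 genes to choose from and 9 tumors, high values arise among unrelated genes.

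Of a list of other S100 genes, S100-fused genes and S100pbp, 13 were in the table and 6 passed the filter. S100pbp encodes an S100-binding protein and is counted among these. S100b was the 1 of these 6 past the threshold in each comparison with the original/B6129SF1 group, where 8.28% and 6.75% of all genes were. It passed the filter through the adapted tumors alone, in which it was high, so that this count says nothing about the family. For the same reason its fold changes and p-values below are given as a description. S100b, which marks glia but is not limited to them, was 0.294, 0.9 and 0.167 FPKM in the original/B6129SF1 tumors, 2.77, 2.27 and 1.25 FPKM in the adapted/B6129SF1 tumors, and 3.05, 2.84 and 2.28 FPKM in the adapted/C57BL/6 tumors. Every adapted tumor was above every original tumor. Of all genes, 29.6% did not overlap between the adapted/B6129SF1 and original/B6129SF1 groups, and 32.8% for the adapted/C57BL/6 group. The log2 fold change of S100b was 1.09 (SE 0.25, limma adjusted p = 0.0322) in the adapted/B6129SF1 group and 1.38 (SE 0.25, limma adjusted p = 0.0151) in the adapted/C57BL/6 group. With every gene above 0 in any tumor kept, the limma adjusted p-values were 0.0466 and 0.0248. That setting does not change the low level of S100b, at 3.05 FPKM or less, for which counting error is unknown. With a pseudocount of 0.1 the log2 fold changes were 2.15 and 2.57. The glial transcription factor gene Sox10 was under 1 FPKM in every tumor. The call in the adapted/B6129SF1 group was lost when original/B6129SF1 replicate 1 or 3, adapted/B6129SF1 replicate 1 or 2, or adapted/C57BL/6 replicate 3 was left out, and when only the compared groups were fitted. In the adapted/C57BL/6 group it was lost without original/B6129SF1 replicate 1 or 3 or adapted/C57BL/6 replicate 3. The adjusted p of the lost calls reached 0.111 and 0.063 in those groups.

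The calgranulin genes S100a8 and S100a9, which neutrophils and monocytes express, were low. S100a9 was 11.2, 5.02 and 13.2 FPKM in the original/B6129SF1 tumors, 5.5, 1.55 and 3.31 FPKM in the adapted/B6129SF1 tumors, and 22.8, 11.3 and 7.43 FPKM in the adapted/C57BL/6 tumors. The adapted/B6129SF1 tumors were lower than all adapted/C57BL/6 tumors, where 11.7% of all genes did not overlap between these groups. The log2 fold change between the adapted groups was 1.70 (SE 0.48), which did not pass over all genes (adjusted p = 0.602 from limma). S100a8 ranged from 4.15 to 21.1 FPKM and S100a7a from 2.72 to 9.07 FPKM, with adjusted p-values from limma of 0.142 or more in every comparison. For S100a8 the adapted groups overlapped, at 4.15 to 14.6 FPKM in B6129SF1 hosts and 10.2 to 21.1 FPKM in C57BL/6 hosts. Transcripts of S100a14, an epithelial member, were under 1 FPKM in every tumor, and S100a2, S100z, Hrnr and Crnn were listed at 0 throughout.

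**Figure D4:**
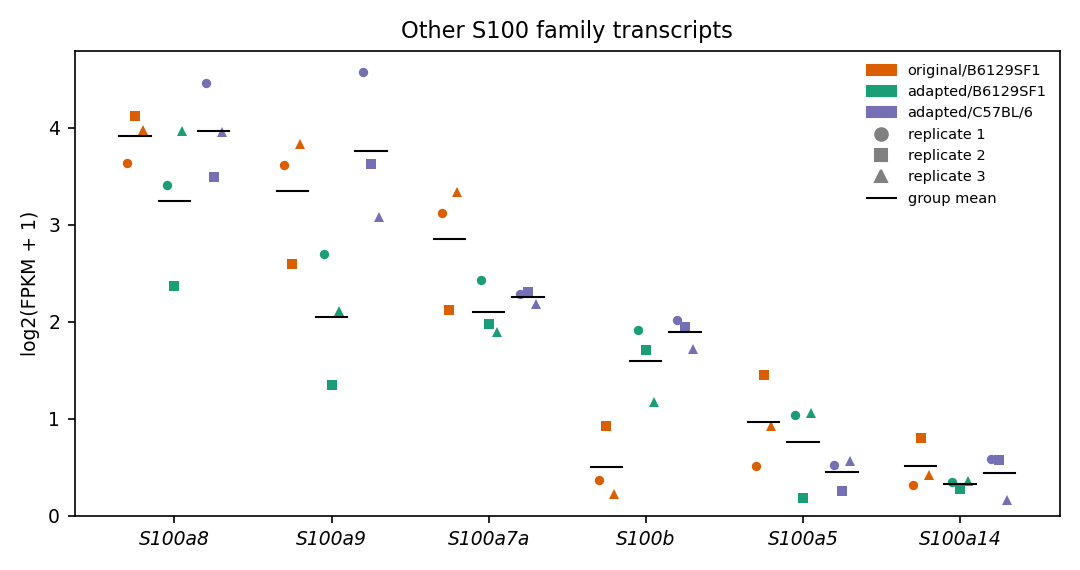
Log2(FPKM + 1) of 6 other S100 genes in the 9 tumors, with color for the group, symbol for the replicate number and a bar for the group mean. S100b lies higher in all 6 adapted tumors than in the 3 original tumors, and S100a9 is higher in every adapted/C57BL/6 tumor than in every adapted/B6129SF1 tumor. Against the original tumors, 29.6% and 32.8% of all genes tested did not overlap in the adapted/B6129SF1 and adapted/C57BL/6 groups. Between the adapted groups the share was 11.7%.

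The genes of S100 partners are read beside the shares of all genes called, which were 8.28%, 6.75% and 0.0292% in the 3 comparisons, so that 0 calls in a list this short is near the background. Of 9 annexin and Ahnak genes tested, 0 passed the threshold in any comparison by limma, with median log2 fold changes of -0.21 in the adapted/B6129SF1 group and 0.02 in the adapted/C57BL/6 group against the original/B6129SF1 group. Anxa2, the partner of S100a10, was 1033, 1338 and 1177 FPKM in the original/B6129SF1 tumors, 930.2, 870.5 and 934.9 FPKM in the adapted/B6129SF1 tumors, and 961.9, 979.9 and 1015 FPKM in the adapted/C57BL/6 tumors. All 3 original tumors were above all 6 adapted tumors. Of all genes, 29.6% did not overlap between the adapted/B6129SF1 and original/B6129SF1 groups, and 32.8% for the adapted/C57BL/6 group. The log2 fold changes of Anxa2 were -0.37 and -0.26 (SE 0.12 each, adjusted p = 0.102 and 0.243 from limma). Of the 19 intracellular partners and targets tested, among them Myh9, Cacybp and Ppfibp1, 0 passed in any comparison, and likewise 0 of 12 other EF-hand sensors such as the calmodulin genes.

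The complex of S100a10 and Anxa2 binds plasminogen, whose gene Plg was at 0.0138 FPKM or less in every tumor and was not tested. Of the plasminogen system, 1 of 5 genes tested passed in the adapted/B6129SF1 group, where 8.28% of all genes did. The urokinase receptor gene Plaur was 76.8, 64.4 and 92.1 FPKM in the original/B6129SF1 tumors, 46.8, 47.1 and 46.4 FPKM in the adapted/B6129SF1 tumors, and 59.2, 50.6 and 73.7 FPKM in the adapted/C57BL/6 tumors. It was lower in the adapted/B6129SF1 group by a log2 fold change of -0.71 (SE 0.16, limma adjusted p = 0.0321). The groups did not overlap, as for 29.6% of all genes. In the adapted/C57BL/6 group the value was -0.34 (adjusted p = 0.229), and the difference between the adapted groups was 0.36 (adjusted p = 0.796). The call was lost, with an adjusted p of up to 0.105, without original/B6129SF1 replicate 1 or 3, without any 1 of the 3 adapted/B6129SF1 tumors, without both muscle-rich tumors and after TPM scaling. Of the 10 receptor genes tested, 1 passed in the adapted/C57BL/6 group, where 6.75% of all genes did. Egfr was higher there with a log2 fold change of 1.62 (limma adjusted p = 0.0261). Its value was 1.16 in the adapted/B6129SF1 group (adjusted p = 0.0677), and the adapted groups differed by 0.45 (adjusted p = 0.869), so no difference between hosts was shown. That call was lost in 5 of the 9 fits without 1 tumor, those without original/B6129SF1 replicates 1, 2 or 3 or adapted/C57BL/6 replicates 2 or 3. Ager, the gene of the RAGE receptor for secreted S100 proteins, ranged from 0.443 to 5.62 FPKM and did not pass (adjusted p of 0.703 or more).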

How the data were processed

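RNA-seq of 9 tumors was used. Per the labels and the paper, the authors aligned paired-end reads to mm10 with HISAT2 and deposited FPKM values made with Cuffnorm. The gene annotation and the Cuffnorm scaling are not given in the sources used here. The samples' organism field names human, but symbols and build are mouse. Groups and replicate numbers came from the labels. The members, gene lists, marker lists and tests were chosen with earlier results of these data known.

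Values were tested as log2(FPKM + 1) with limma 3.58.1 in R 4.3.3 (lmFit, eBayes with a mean-variance trend, one model of the 3 groups), over genes that reached 1 FPKM in 3 or more tumors. Because of the pseudocount of 1, a fold change understates that of weakly expressed genes. Exact two-sided permutation tests used scipy 1.17.1. The procedure was tested on simulated data with planted changes larger than any member difference here. How often smaller differences would be found was not tested. Reads were not used, so absolute depth is unknown. Steps between low values gave a depth of 0.96 to 1.35 relative to original/B6129SF1 replicate 1, which is approximate (33 to 141 genes on the main step). Named genes were the members, the genes of the lists and the closest genes by correlation. No mouse annotation or sequence was used here. Alternatives were other scalings, filters, pseudocount, samples, a replicate block, no trend and each tumor left out.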

Additional observations from a re-analysis of the deposited data

How the results depend on the processing

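The number of S100 members past the threshold was 0 in all 60 settings over the 3 comparisons. These include the fold change limit added to each main fit, where 0 followed from the main count of 0. Of 429 alternative values of the members' fold changes, 23 changed sign. The 429 include settings that cannot move a fold change. These are other filters, only the groups compared, the replicate block, no trend and a left-out tumor of the group not compared. Of the 393 that had a p, 0 crossed the threshold, and the rest were of S100a4 against the original/B6129SF1 group, which was not tested. With the tumors left out in turn, the adapted/B6129SF1 values against the original/B6129SF1 group ranged from -0.17 to 0.085 for S100a10, -0.079 to 0.23 for S100a13 and -0.40 to 0.14 for S100a16. The adapted/C57BL/6 values ranged from -0.030 to 0.36 for S100a1, -0.26 to 0.040 for S100a6, -0.11 to 0.20 for S100a13 and -0.19 to 0.20 for S100a16. Between the adapted groups they ranged from -0.15 to 0.23 for S100a3, -0.065 to 0.050 for S100a4, -0.13 to 0.14 for S100a13 and -0.090 to 0.37 for S100a16. Scaled as TPM, the difference between the adapted groups was 0.0037 for S100a4 and 0.00026 for S100a13. Without both tumors richest in muscle RNA, S100a4 had 0.042 between the adapted groups, and S100a16 had -0.0035 in the adapted/C57BL/6 group against the original/B6129SF1 group.

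The number of all genes past the threshold depended more on the setting, and the cause was not tested. In the adapted/B6129SF1 group it was 850, and 330 with an absolute log2 fold change above 1 as well, 560 scaled as TPM, 449 with only the groups compared, 444 with the replicate block, 477 without both muscle-rich tumors, and 211 to 808 with each tumor left out. In the adapted/C57BL/6 group it was 693, and 317 with the fold change limit, 388 with the replicate block, and 203 to 819 with each tumor left out. Between the adapted groups it was 3, and 1 without a filter, 0 with at least 1 FPKM in all tumors, 0 with only the groups compared, 0 with the replicate block, and 0 to 6 with each tumor left out. Without adjustment, 643 genes were under 0.05 by limma in that comparison. Replicate numbers do not pair animals, and the correlations of same-numbered tumors' deviations from the group means ran from -0.39 to 0.61. Without reads, counting error could not be given, which bears most on S100a3 and S100b.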
